A study of Mus musculus with 2 samples.

Results

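A set of 10 genes known for expression from the paternal allele in mouse was followed in embryonic stem cells labelled as lacking Ago1 and Ago2. The genes are Nnat, Zdbf2, Peg3, Peg10, Sgce, Mest, Plagl1, Snrpn, Impact and Ndn, all outside the imprinted domains of Igf2 and Dlk1. The 10 symbols were matched through GENCODE M21 to 1 Ensembl gene each, of 47643 gene IDs in the count tables. The list was selected on the count ratio of replicate 2 over replicate 1 in part, because Nnat and Zdbf2 were higher in replicate 2. Every ratio between the libraries below is therefore a description and carries no test. The cells were E14, a mouse embryonic stem cell line on the 129/Ola background, with blastocyst as the labelled tissue and a double knockout of AGO1 and AGO2 as the labelled genotype. The series held 2 libraries of this 1 group, called replicate 2 and replicate 1 here, and unmodified cells were not analysed here. The cells grew in 15% serum with 100 U/mL LIF on plates coated with 0.2% gelatine, and polyA RNA was sequenced from 1 ug of total RNA per library. Nothing in the labels tells if each library had its own culture or clone, so the spread between the pair may be technical.

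Most imprinted genes are marked by DNA methylation that is laid down differently in egg and sperm. The mark sits at control regions, is kept in the embryo by zinc finger proteins such as ZFP57 with the co-repressor TRIM28, and leaves the gene active on the allele of 1 parent. Many paternally expressed genes act in the growth of the placenta, fetus and newborn, and in the brain. AGO1 and AGO2 are Argonaute proteins, which bind microRNAs and repress the transcripts these pair with. Counts per gene do not separate the parental alleles, so no value here measures imprinting or checks the parental origin in the name of the group.

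Promoter sequence is shown for Zdbf2 and Nnat, the followed genes whose libraries stood furthest apart, and for the stretch between Peg3 and Usp29, whose levels are set beside each other further on. The windows are the 250 bases before a transcription start in RefSeq (GRCm38.p6), written 5′ to 3′ on the strand of the gene. Capitals mark TGCCGC on either strand, the hexamer that ZFP57 binds when its CpG is methylated. RefSeq gives Zdbf2 an upstream start and a proximal start, whose windows lie at chr1:63200108-63200357 and chr1:63273019-63273268 on the plus strand. The Nnat window lies at chr2:157559828-157560077 on the plus strand. The last stretch is the 146 bases between the divergent starts of Peg3 and Usp29, at chr7:6730432-6730577 on the minus strand, the strand of Peg3.
Zdbf2 upstream window: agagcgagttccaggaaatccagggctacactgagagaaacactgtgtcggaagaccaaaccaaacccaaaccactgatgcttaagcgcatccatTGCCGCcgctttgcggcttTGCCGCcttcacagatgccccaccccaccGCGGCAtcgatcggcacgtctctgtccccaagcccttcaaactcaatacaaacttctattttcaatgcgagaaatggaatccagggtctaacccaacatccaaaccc
Zdbf2 proximal window: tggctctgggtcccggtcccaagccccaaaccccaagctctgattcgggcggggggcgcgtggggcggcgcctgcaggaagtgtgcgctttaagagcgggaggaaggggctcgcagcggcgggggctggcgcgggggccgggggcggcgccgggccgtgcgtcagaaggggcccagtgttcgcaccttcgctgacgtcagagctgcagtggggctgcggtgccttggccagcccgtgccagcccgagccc
Nnat window: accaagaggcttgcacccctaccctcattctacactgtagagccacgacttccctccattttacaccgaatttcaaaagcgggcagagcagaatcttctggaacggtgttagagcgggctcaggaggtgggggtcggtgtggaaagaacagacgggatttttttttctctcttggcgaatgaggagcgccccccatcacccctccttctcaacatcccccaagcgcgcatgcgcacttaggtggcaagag
Peg3 to Usp29 stretch: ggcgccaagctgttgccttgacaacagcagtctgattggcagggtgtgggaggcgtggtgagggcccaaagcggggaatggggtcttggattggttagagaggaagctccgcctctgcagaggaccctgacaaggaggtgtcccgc

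The upstream Zdbf2 window holds TGCCGC 3 times and 13 CpG dinucleotides, while the proximal window holds no TGCCGC and 26 CpGs. Of 32817 RefSeq windows of the same length, 8.68% hold the hexamer at least once and 24 windows hold it 3 times or more. The Nnat window holds 12 CpGs and no TGCCGC, and the stretch between Peg3 and Usp29 holds 5 CpGs and no TGCCGC. Windows were matched for 7 of the 10 genes, 12 windows in all, and Peg10, Sgce and Impact were not among them. Windows on chromosome 18, where Impact lies, were left out of the match. Of those 7 genes, Zdbf2, Mest and Plagl1 hold the hexamer in a window. By window, the measure of the 8.68%, it was 4 of 12, and the Mest windows among the 4 overlap and hold the same sites. A match of letters is not a bound site, and the lack of a match concerns only the bases searched.

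Library totals were 29789560 counts in replicate 2 and 34798975 counts in replicate 1, so 1 count equals 0.0336 CPM in replicate 2 and 0.0287 CPM in replicate 1. CPM scales the count of a gene to the total of its library, and TPM also divides by the summed exon length, so that genes can be set beside each other. The stem cell label was checked on 8 markers, all of them above 1 CPM. They summed to 6885 CPM in replicate 2, against 7184 CPM in replicate 1. Dppa5a and Pou5f1 made up most of the sum, at log2 ratios of replicate 2 over replicate 1 of -0.16 and -0.09. Of the 8 ratios 5 lay above 0 and 3 below, with a median of 0.06. Fibroblast markers, which feeder cells would bring, summed to 26.2 CPM in replicate 2, against 26.8 CPM in replicate 1. Of 7 such markers 2 reached 1 CPM in both libraries. Thy1 made up most of the sum, and Col1a1 had 91 counts or 3.05 CPM in replicate 2, against 71 counts or 2.04 CPM in replicate 1, a log2 ratio of 0.59 (interval 0.13 to 1.06). Col3a1 and Lum had no count in either library, and the remaining markers had at most 2 counts per library. Of 19078 genes with at least 10 counts in total, 1.86% were 2-fold or more higher and 3.61% were 2-fold or more lower in replicate 2. The share that was lower was 10.3% of genes with 10 to 99 counts and 2.12% of genes with at least 100 but under 1000. The median over all 19078 log2 ratios was -0.00040 and the central 95% ran from -1.17 to 0.88.

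Of the 10 paternally expressed genes, 8 reached 1 CPM in both libraries, against 58.0% of protein-coding genes and 29.6% of all gene IDs. Plagl1 fell short in replicate 2 and Nnat in replicate 1. The 10 genes together took 21995 counts or 0.0738% of replicate 2 and 20964 counts or 0.0602% of replicate 1. Peg10 alone held 49.7% of these counts in replicate 2 and 48.9% in replicate 1. In TPM the genes spanned a 391-fold range, which fell into an abundant group of Peg10, Snrpn, Impact, Peg3 and Zdbf2 and a scarce group of Mest, Ndn, Nnat, Sgce and Plagl1.

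**Figure D1:**
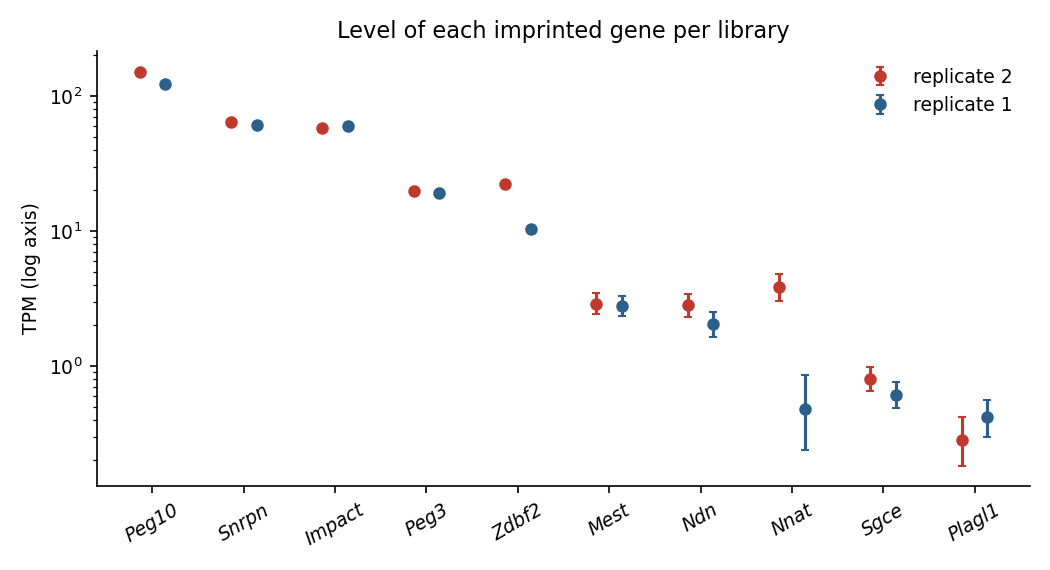
Level of each gene in TPM (log axis) in replicate 2 (red) and replicate 1 (blue), ordered by the mean. Bars are 95% Poisson intervals of the counts and cover counting error only. Peg10 was the most abundant at 137 TPM on average and Plagl1 the least at 0.350 TPM, and the libraries stand apart most at Nnat.

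The order by level was Peg10 (137 ± 20.8 TPM, SD, n = 2), Snrpn (62.6 ± 2.69 TPM), Impact (58.9 ± 0.964 TPM), Peg3 (19.3 ± 0.449 TPM) and Zdbf2 (16.3 ± 8.35 TPM). Peg10 was above 96.0% of protein-coding genes in TPM, and Zdbf2 above 70.1%. The values of the libraries for Peg3 and Zdbf2 overlapped, so these neighbours in the order were not apart beyond their spread. Among the scarce genes Mest (2.84 ± 0.0879 TPM), Ndn (2.43 ± 0.553 TPM), Nnat (2.16 ± 2.38 TPM) and Sgce (0.712 ± 0.138 TPM) overlapped from each to the next. Plagl1 was lowest, at 0.350 ± 0.0941 TPM, above 36.2% of protein-coding genes. Snrpn and Impact did not overlap, but Impact stood above Snrpn when the longest annotated transcript was taken as the length.

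Zinc finger genes came first by role, and Zdbf2 was the abundant gene whose libraries stood furthest apart. Zdbf2 encodes a DBF-type zinc finger protein that promotes growth and feeding of newborn mice. Zdbf2 (ENSMUSG00000027520; GRCm38 chromosome 1, 63273265 to 63314576, plus strand) had 3050 counts or 102 CPM in replicate 2 (95% interval 98.8 to 106), against 1664 counts or 47.8 CPM in replicate 1 (95% interval 45.5 to 50.2). The intervals lay far apart, with replicate 2 the high library. The log2 ratio of replicate 2 over replicate 1 was 1.11 (95% binomial interval for counting error 1.02 to 1.19), a 2.15-fold difference. Of 8358 genes with 1000 counts or more, 0.0718% were 2-fold or more higher in replicate 2, and Zdbf2 took place 4 among them.

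The locus upstream of Zdbf2 differed between the libraries as well, in opposite directions on its strands. Background from mouse embryos is that a long transcript starts upstream of Zdbf2 on the paternal allele and switches on the Zdbf2 promoter. The noncoding gene Platr12 (ENSMUSG00000086730; chromosome 1, 63200313 to 63207967) runs on the Zdbf2 strand and starts 45 bases before the upstream start that RefSeq gives to Zdbf2, inside the span of Gpr1. Platr12 had 79 counts or 2.65 CPM in replicate 2 and 22 counts or 0.632 CPM in replicate 1, a log2 ratio of 2.05 (interval 1.38 to 2.83). Among 5195 genes with at least 100 but under 1000 counts, of which 0.443% were 2-fold or more higher in replicate 2, Platr12 took place 2. Gpr1, a receptor gene on the opposite strand, had 49 counts or 1.64 CPM in replicate 2 and 101 counts or 2.90 CPM in replicate 1, a log2 ratio of -0.80 (interval -1.33 to -0.30). For each Gpr1 count there were 62.2 Zdbf2 counts in replicate 2 and 16.5 in replicate 1. Farther out, Ndufs1 had a log2 ratio of -0.0023 and Eef1b2 of -0.08. Exons of Platr12, Gpr1 and Zdbf2 do not overlap each other, but the files do not tell which start the Zdbf2 reads came from.

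Peg3 encodes a large zinc finger protein that acts in growth and maternal behaviour. Peg3 (ENSMUSG00000002265; chromosome 7, 6703892 to 6730431, minus strand) had 2836 counts or 95.2 CPM in replicate 2 and 3191 counts or 91.7 CPM in replicate 1. Its mean was 93.4 ± 2.48 CPM (SD, n = 2), and the log2 ratio was 0.06 (interval -0.01 to 0.14), so the libraries were level at this gene. Usp29, a paternally expressed ubiquitin protease gene that starts 147 bases from Peg3 on the other strand, was scarce. It had 34 counts or 1.14 CPM in replicate 2 and 61 counts or 1.75 CPM in replicate 1, a log2 ratio of -0.60 (interval -1.26 to 0.02). There were 83.4 Peg3 counts for each Usp29 count in replicate 2 and 52.3 in replicate 1. Zfp264, which GENCODE annotates as a transcribed pseudogene, lies in the same domain 247 kb from Peg3 and stood at 38 counts or 1.28 CPM in replicate 2 and 233 counts or 6.70 CPM in replicate 1. Its log2 ratio of -2.37 (interval -2.92 to -1.88) was place 38 from the lowest of 19078 genes. It was the lowest of the 5195 genes with at least 100 but under 1000 counts, of which 2.12% were 2-fold or more lower in replicate 2. Of the 50-base stretches of Zfp264 and Usp29 transcripts, 11.5% and 14.9% recur in other genes, so these counts may be split or shared. Zim1, a maternally expressed gene on the far side of Peg3, had a log2 ratio of -0.06.

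**Figure D2:**
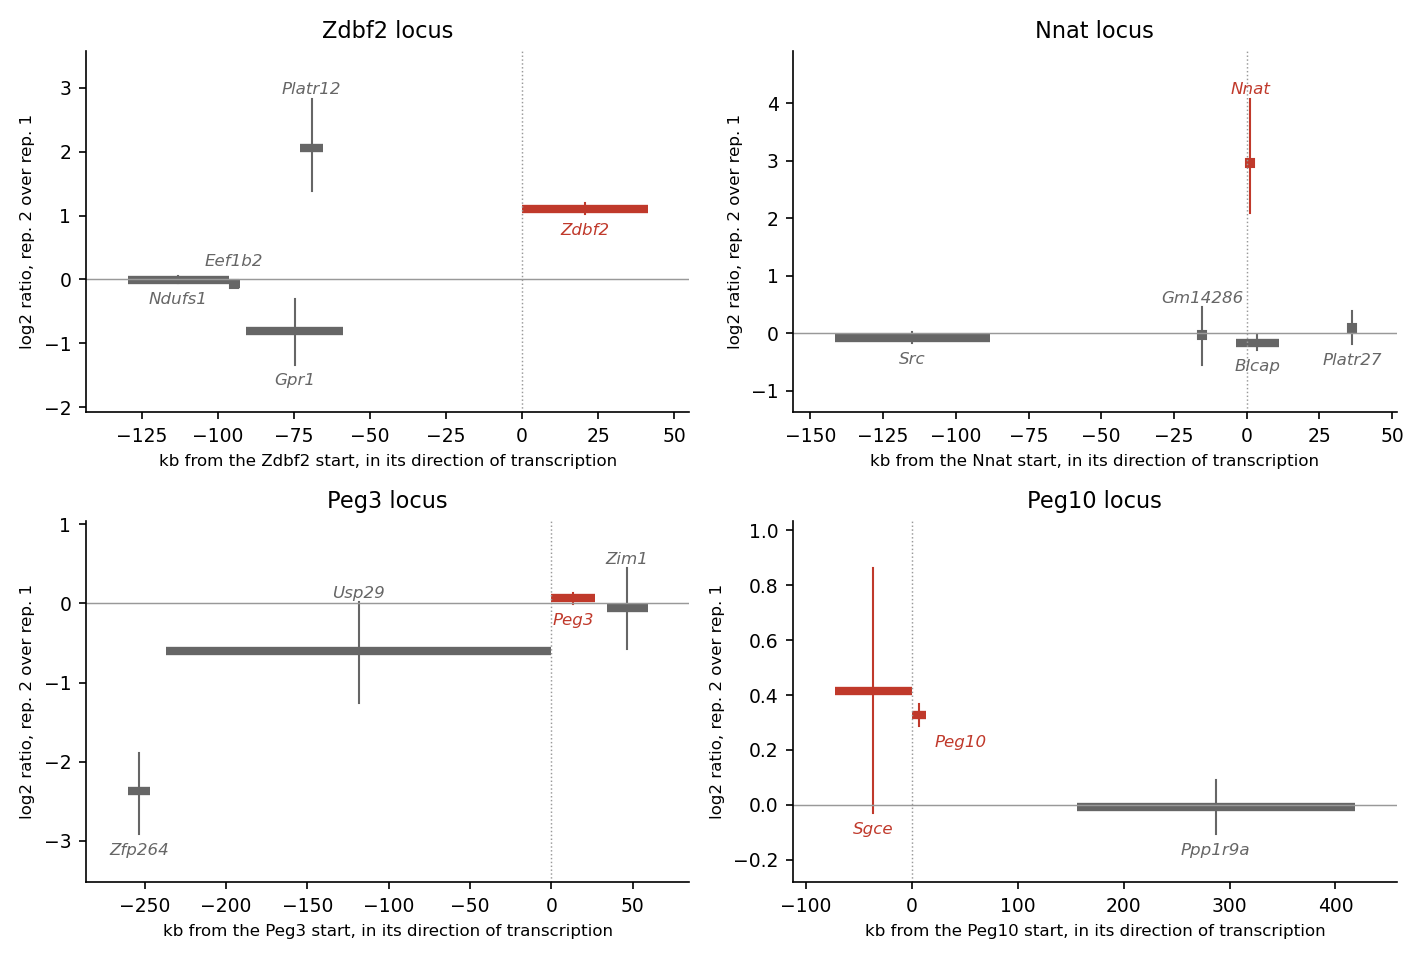
Log2 ratio of replicate 2 over replicate 1 for genes around Zdbf2, Nnat, Peg3 and Peg10, against distance in kb from the start of that gene in its direction of transcription. Horizontal bars span each gene, vertical lines are 95% binomial intervals for counting error, and red marks the followed genes. Genes with under 50 counts, small RNAs and processed pseudogenes are left out. Platr12 lies above Zdbf2 and Gpr1 below 0, whereas Blcap lies at -0.17 beside Nnat at 2.97.

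Plagl1 encodes a zinc finger transcription factor, also known as ZAC1, that can halt the cell cycle. Plagl1 (ENSMUSG00000019817; chromosome 10, 13060504 to 13131694, plus strand) had 24 counts or 0.806 CPM in replicate 2 and 41 counts or 1.18 CPM in replicate 1. It was the lowest of the 10 ratios at -0.53, but the interval of -1.33 to 0.22 held 0. Its neighbours Sf3b5 and Ltv1 stood at log2 ratios of 0.10 and 0.08.

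The membrane protein gene Nnat differed most between the libraries. Nnat encodes neuronatin, a small proteolipid of the endoplasmic reticulum known from the developing brain. Nnat (ENSMUSG00000067786; chromosome 2, 157560078 to 157562522, plus strand) lies within an intron of Blcap on the opposite strand. Nnat had 76 counts or 2.55 CPM in replicate 2 (95% interval 2.01 to 3.19), against 11 counts or 0.316 CPM in replicate 1 (95% interval 0.158 to 0.566). The intervals did not overlap, although both libraries were low. The log2 ratio was 2.97 (interval 2.10 to 4.08), a 7.82-fold difference, at place 9 of 19078 genes and place 8 of the 5525 genes with 10 to 99 counts. Among those 5525 genes 5.88% were 2-fold or more higher in replicate 2. Blcap had 839 counts or 28.2 CPM in replicate 2 and 1106 counts or 31.8 CPM in replicate 1, a log2 ratio of -0.17 (interval -0.30 to -0.04). The 5 other genes within 100 kb that had at least 10 counts and share no bases with Nnat ran from -0.07 to 0.54. A microRNA gene, Gm23134, overlaps 87 of the 1829 exon bases of Nnat on the other strand. Gm23134 had 17 counts in replicate 2 and 15 in replicate 1, where Nnat had 11. The strand setting of the counting is not given, so the split of reads between Nnat and Gm23134 is uncertain.

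Neural markers were set beside Nnat. Of 8 such genes 6 reached 1 CPM, and their summed level was 106 CPM in replicate 2 and 105 CPM in replicate 1. Tubb3, Nes and Map2 made up most of the sum. Neurod1 was the member furthest from 0, with 288 counts or 9.67 CPM in replicate 2 and 214 counts or 6.15 CPM in replicate 1. Its log2 ratio was 0.66 (interval 0.40 to 0.92), place 93 from the highest of 5195 genes with at least 100 but under 1000 counts. The others with counts ran from -0.10 to 0.20, and Dcx and Olig2 had no count in either library. The part of neural cells in the Nnat difference was not tested.

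Sgce and Peg10 start 99 bases apart on opposite strands and stood at very different levels. Sgce encodes epsilon-sarcoglycan, a membrane protein whose loss on the paternal allele causes a movement disorder in human. Peg10 derives from a retrotransposon and is needed for the mouse placenta. Sgce (ENSMUSG00000004631; chromosome 6, 4674350 to 4747207, minus strand) had 93 counts or 3.12 CPM in replicate 2 and 82 counts or 2.36 CPM in replicate 1, a log2 ratio of 0.41 (interval -0.03 to 0.86). Peg10 (ENSMUSG00000092035; chromosome 6, 4747306 to 4760517, plus strand) had 10940 counts or 367 CPM in replicate 2 and 10247 counts or 294 CPM in replicate 1, a log2 ratio of 0.33 (interval 0.29 to 0.37). Both ratios were above 0, and of the pair only the Peg10 interval lay wholly above 0. Peg10 took place 177 from the highest of 8358 genes with 1000 counts or more. The level of Peg10 in TPM was 187 times that of Sgce in replicate 2 and 199 times in replicate 1. Trophoblast markers, for cells in which Peg10 is high, summed to 17.2 CPM in replicate 2, against 21.3 CPM in replicate 1, and their part in the Peg10 difference was not tested. Of 8 such markers Krt7, Eomes and Ascl2 reached 1 CPM in both libraries, Cdx2 had 6 counts in replicate 2 and 5 in replicate 1, and Tpbpa had none. Ppp1r9a, farther along on the strand of Peg10, had a log2 ratio of -0.0086.

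**Figure D3:**
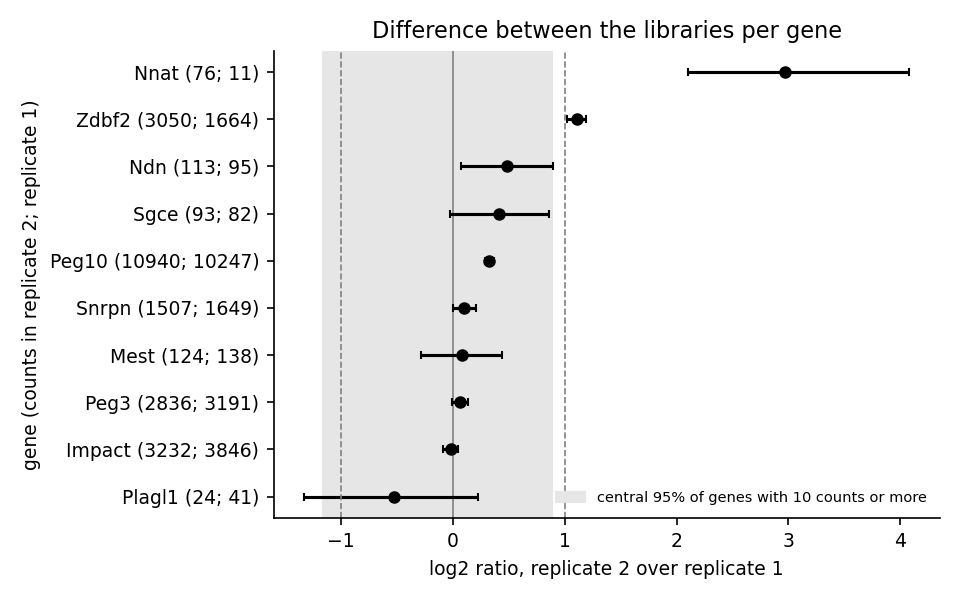
Log2 ratio of replicate 2 over replicate 1 for each gene, with its counts in replicate 2 and in replicate 1 beside the name. Bars are 95% binomial intervals for counting error, the grey band is the central 95% of genes with at least 10 counts (-1.17 to 0.88), and dashed lines mark 2-fold. Nnat and Zdbf2 lie beyond 2-fold and the other 8 genes inside the band, which takes in genes of low and high counts alike.

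The log2 ratios of Impact and Snrpn lay close to 0. Impact encodes an inhibitor of the stress kinase GCN2. Impact (ENSMUSG00000024423; chromosome 18, 12955852 to 12992950, plus strand) had 3232 counts or 108 CPM in replicate 2 and 3846 counts or 111 CPM in replicate 1, a log2 ratio of -0.02 (interval -0.09 to 0.05). Its mean of 109.5 ± 1.43 CPM (SD, n = 2) was the steadiest relative to its level among the 10 genes. Snrpn encodes the SmN protein of the spliceosome and shares transcripts with Snurf. Snrpn (ENSMUSG00000102252; chromosome 7, 59982495 to 60140219, minus strand) had 1507 counts or 50.6 CPM in replicate 2 and 1649 counts or 47.4 CPM in replicate 1. Its log2 ratio was 0.10 (interval 0.0012 to 0.20). Exons of Snurf, Gm38393 and Gm18908 cover 34.1% of the Snrpn exon bases, so the split of reads among these genes is uncertain. Snurf had 497 counts in replicate 2 and 479 in replicate 1, and Snhg14, the noncoding gene downstream of Snrpn, had 915 in replicate 2 and 1125 in replicate 1, with log2 ratios of 0.29 and -0.07.

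Ndn encodes necdin, a MAGE family protein of neurons that lies in the same imprinted region as Snrpn. Ndn (ENSMUSG00000033585; chromosome 7, 62346569 to 62350262, plus strand) had 113 counts or 3.79 CPM in replicate 2 and 95 counts or 2.73 CPM in replicate 1, a log2 ratio of 0.48 (interval 0.08 to 0.89). That was place 236 from the highest of 5195 genes with at least 100 but under 1000 counts. Neighbours of Ndn differed in level. The MAGE family gene Magel2 had 6 counts in each library. The ubiquitin ligase gene Mkrn3 had 402 counts in replicate 2 and 425 in replicate 1, a log2 ratio of 0.15. Mest, also known as Peg1, encodes an enzyme of the hydrolase fold that is active in fetal mesoderm. Mest (ENSMUSG00000051855; chromosome 6, 30723547 to 30748465, plus strand) had 124 counts or 4.16 CPM in replicate 2 and 138 counts or 3.97 CPM in replicate 1, a log2 ratio of 0.08 (interval -0.28 to 0.44). Exons of Copg2 on the opposite strand cover 23.1% of the exon bases of Mest. Copg2 itself had 64.7 CPM in replicate 2 and 67.0 CPM in replicate 1. Because the strand setting of the counting is not given in the sources used here, part of the Mest count cannot be told apart from Copg2.

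Over the 10 genes the median log2 ratio was 0.22, with 8 above 0 and 2 below. Of all 19078 genes with at least 10 counts, 9536 lay above 0 and 9542 below, with a median of -0.00040. Nnat and Zdbf2 were the 2 genes past 2-fold, against 5.47% of genes with at least 10 counts in either direction, and the list was chosen with these ratios known. Without Nnat and Zdbf2 the median of the other 8 was 0.09, with 6 above 0 and 2 below and a range of -0.53 to 0.48. The counting interval lay above 0 for 5 genes, Nnat and Zdbf2 included, and for 3 of the 8 without them, and it held 0 for the other 5. It lay above 0 for 16.5% and below 0 for 16.6% of all genes with at least 10 counts, and nothing is read from these shares because the choice of genes used the ratio. These intervals leave out any spread beyond counting. Of 36 other genes within 100 kb of the followed genes, Platr12 was past 2-fold higher. A copy of the small RNA gene Gm26457, with 4 counts in replicate 2 and 12 in replicate 1, was past 2-fold lower. Among all genes with at least 10 counts, 1.86% were 2-fold or more higher and 3.61% lower, so these counts are near the background. The median log2 ratio of the 36 neighbours was -0.04.

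**Figure D4:**
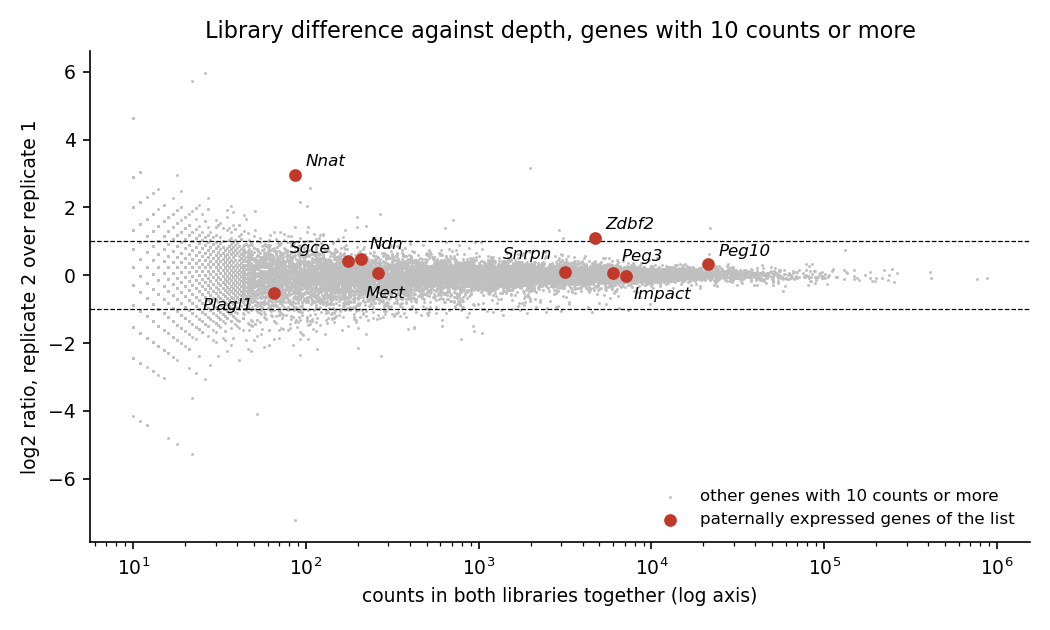
Log2 ratio of replicate 2 over replicate 1 against the counts of both libraries together (log axis) for genes with at least 10 counts (grey) and the 10 followed genes (red). Dashed lines mark 2-fold. The grey cloud narrows with depth, and Zdbf2 at 4714 counts and Nnat at 87 counts stand above most of it.

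Of 23 other genes that are paternally expressed or lie beside such genes, 18 had at least 10 counts and 15 stood at or above 1 CPM in each library. The median of the 18 log2 ratios was 0.08, with Platr12 past 2-fold higher and Zfp264 past 2-fold lower, against 5.47% of all genes with at least 10 counts past 2-fold in either direction. Both genes have at least 100 but under 1000 counts, a range in which 0.443% of genes were 2-fold or more higher and 2.12% lower. Nothing is read from these shares, since the list was chosen with earlier results of these data known. Platr12 is also counted among the neighbours above. Slc38a4, an amino acid transporter gene, was the most abundant in CPM at 373 ± 29.8 CPM (SD, n = 2), followed by Jade1 at 233 ± 14.7 CPM. Sfmbt2, a Polycomb-related gene, stood at 76.9 CPM in replicate 2 and 52.2 CPM in replicate 1, a log2 ratio of 0.57, and Mcts2 at 15.6 CPM in replicate 2 and 25.4 CPM in replicate 1, a ratio of -0.69. Rasgrf1 and Nap1l5 had no count. Of 12 maternally expressed or host genes near the followed genes, 10 had at least 10 counts, with a median of -0.02. Asb4 was the 1 gene of these past 2-fold, with 22 counts in replicate 2 and 8 in replicate 1 and a log2 ratio of 1.64 (interval 0.47 to 3.07). Of genes with 10 to 99 counts, as Asb4 has, 5.88% were 2-fold or more higher. Ube3a and Copg2 were its most abundant genes, at 152 ± 13.1 and 65.8 ± 1.58 CPM.

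Factors that keep or remove imprints were measured beside the followed genes. All 19 genes of this list stood above 1 CPM in each library, with a median log2 ratio of 0.07 and a range of -0.09 to 0.30. Trim28 (1428 ± 41.3 CPM) and Tet1 (807 ± 80.0 CPM), which encodes a methylcytosine dioxygenase, were the most abundant. Zfp57 stood at 309 CPM in replicate 2 and 306 CPM in replicate 1, a log2 ratio of 0.02. The count past 2-fold was 0 of 19. All of them but Dppa3 had 1000 counts or more, a range in which 0.0718% of genes were 2-fold or more higher and 0.144% lower, so the count is near the background. Dppa3, at 11.6 ± 1.65 CPM, had the highest log2 ratio of the list at 0.30 (interval 0.09 to 0.51). Primitive endoderm markers summed to 5.91 CPM in replicate 2 and 7.93 CPM in replicate 1, with Gata4 the 1 of 8 at 1 CPM in both and Ttr at no count. Gata6 and Dab2 of these markers and Gata3 of the trophoblast markers were past 2-fold lower, each with 18 counts or fewer per library. Of genes with 10 to 99 counts, 10.3% were 2-fold or more lower. In each of these marker lists 7 genes had at least 10 counts, 6 with ratios below 0 and 1 above. Of all 19078 genes 9542 lay below 0. The medians were -0.41 for primitive endoderm and -0.30 for trophoblast. Gata4 stood at -0.41 (interval -0.74 to -0.08) and Ascl2 at -0.56 (interval -0.94 to -0.19).

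**Figure D5:**
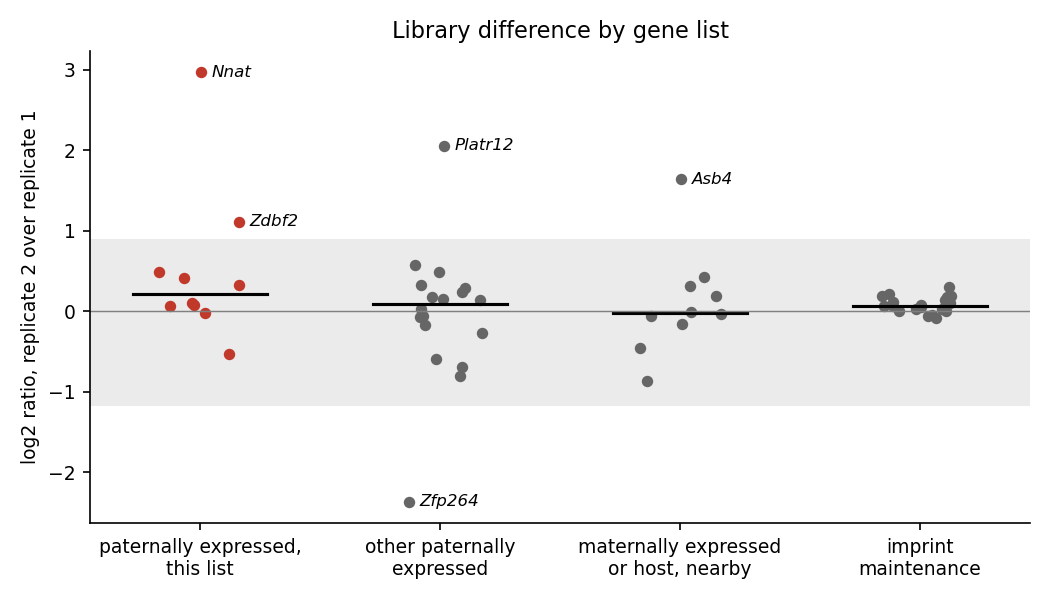
Log2 ratio of replicate 2 over replicate 1 for genes with at least 10 counts, with the 10 followed genes in red. The other columns are further genes that are paternally expressed or lie beside such genes, maternally expressed or host genes nearby, and imprint maintenance factors. Black lines are medians, the grey band is the central 95% of genes with at least 10 counts, and genes past 2-fold are named. The 19 maintenance factors lie between -0.09 and 0.30.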

How the data were processed

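PolyA RNA of 2 libraries of 1 group was measured. Trizol RNA went into TruSeq libraries with a reverse-stranded preparation, per the labels' protocols. The submitters' processing notes name STAR 2.4.2a, mm10 and GRCm38. The deposited values are raw counts, whole numbers per Ensembl gene in 1 column per library. How reads were assigned to genes, with which strand setting and which annotation, is not given in the sources used here.

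GENCODE M21, of the same build, named 47224 of the 47643 IDs and gave positions and exon lengths. CPM and TPM were computed from the counts. Log2 ratios used library sizes scaled by TMM factors of edgeR 4.0.16 and a pseudocount of 0.5. Intervals are 95% exact Poisson intervals for levels and 95% Clopper-Pearson intervals for ratios, and cover counting error only. At this depth 3 counts equal 0.101 CPM in replicate 2, against 0.0862 CPM in replicate 1. With 1 genotype, and with genes chosen by the ratio itself, no test was made. Ratios are described for genes with at least 10 counts in total.

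The members and lists were chosen with earlier results of these data known. The genes named are the 10 followed genes, genes within 100 kb that overlap them, lie nearest or pass 2-fold, and in each list the 2 most abundant and any past 2-fold. Ndufs1, Eef1b2, Magel2, Mkrn3, Zim1, Ppp1r9a, Sfmbt2, Mcts2, Zfp57, Neurod1 and the other markers and genes with no count were named after their values were seen. Alternatives were other scalings, pseudocounts, thresholds and lengths, DESeq2 1.42.0 size factors, removal of a lowess trend (fraction 0.3, statsmodels 0.14.6) on GC content and length, and each library alone. The scripts were tested on simulated counts.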

Additional observations from a re-analysis of the deposited data

How the results depend on the processing

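Nnat and Zdbf2 were the 2 genes past 2-fold under DESeq2 size factors, a pseudocount of 5 counts, removal of the GC and length trend and no count filter, and the 2 past a 1.5-fold limit. The Nnat log2 ratio ran from 2.57 with the pseudocount of 5 to 3.04 with the trend removed, and that of Zdbf2 from 1.04 with the trend removed to 1.11 with DESeq2 size factors. All 40 alternative ratios of single genes stayed inside the counting interval. Scaling by TMM or DESeq2 size factors moved the mean levels little, as with 1.44 CPM for Nnat under either against 1.43 CPM unscaled. The level in 1 library alone moved far for Nnat (2.55 CPM in replicate 2, against 0.316 CPM in replicate 1) and Zdbf2 (102 CPM in replicate 2, against 47.8 CPM in replicate 1). The median log2 ratio of the 10 genes ran from 0.18 to 0.22. The count of genes at the CPM threshold was 8 at 1 CPM and 5 at a threshold of 5 CPM, and 9 in either library alone. Taking the longest annotated transcript as the length moved the place of 4 genes in the order by TPM, as Snrpn changed places with Impact and Ndn with Nnat. The share of all genes past 2-fold was 5.47%. It moved to 14.8% at a 1.5-fold limit, 20.7% with no count filter, 1.11% for genes with at least 100 counts and 2.22% with a pseudocount of 5. By construction the first changes how far a ratio must lie from 0, the filters change which genes enter, and the pseudocount draws the ratios of genes with low counts toward 0. No paired analysis was possible because the series holds 1 group. Depth limits Nnat, Plagl1, Sgce, Ndn and Platr12, whose ratios rest on 11 to 113 counts per library for the first 4 and on 79 in replicate 2 and 22 in replicate 1 for the last.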
